A study of Mus musculus with 3 samples.

Results

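Resident-type macrophages of the ascending aorta were defined here as cells that carried transcripts of complement C1q together with *Folr2*, *F13a1* or *Mrc1*. A barcode entered when it held 600 to 5000 genes and at most 10% mitochondrial UMIs (unique molecular identifiers, each standing for a single captured transcript). Per 10000 UMIs of the cell, a member held at least 10 UMIs of *C1qa*, *C1qb* and *C1qc* together, fewer than 100 of the smooth muscle cell (SMC) genes *Acta2*, *Myh11*, *Tagln*, *Cnn1*, *Myl9* and *Tpm2*, fewer than 20 of the fibroblast gene *Dcn*, none of the lymphocyte genes *Cd3d*, *Cd3g* and *Cd79a*, and at least 3 of *Folr2*, *F13a1* and *Mrc1* together. The members were selected on these measured values, and the levels of the genes in the rule are therefore a description. The rule found 1226 members among 26158 cells: 78 of 5361 in WT, 710 of 8076 in mgR and 438 of 12721 in mgR-LOS.

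Each of the 3 libraries was a pool of ascending aortas from male mice on the C57BL/6J background at P45, digested with elastase and collagenase and captured in droplets. The WT library pooled 3 mice. The mgR library pooled 3 *Fbn1* mgR/mgR mice, a hypomorphic line that makes too little fibrillin-1 and models Marfan syndrome. The mgR-LOS library pooled 4 mice of the same mutant genotype that drank losartan, an angiotensin II type I receptor blocker, at 0.6 g/L from P16, and no label states what the other mutant mice were given to drink. With 1 library per condition no test was possible, and all intervals are 95% intervals, exact except for Newcombe's score intervals of differences between shares, that cover counting error only, so that the spread between mice cannot be told apart from the differences between libraries. The mgR library is the base of the comparison with losartan and the numerator of the comparison with WT, which therefore share it.

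Macrophages of the arterial wall fall broadly into a population that lives in the adventitia from early life and renews itself locally, and cells that derive from blood monocytes. The resident population is known for the hyaluronan receptor *Lyve1*, the folate receptor *Folr2*, the mannose receptor *Mrc1*, the transglutaminase subunit *F13a1* and the chemokine *Pf4*, and for clearing debris and plasma proteins. MHC class II proteins, which present peptides to CD4+ T cells, vary among these cells, and *Ccr2*, the receptor that draws monocytes out of the blood, marks recent arrivals in many tissues.

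The libraries were sequenced to similar depth in the members, with less in mgR-LOS. The libraries held 83338726, 123956320 and 121436873 UMIs in WT, mgR and mgR-LOS. The median member held 8615.5 UMIs in WT, 8491 in mgR and 6332 in mgR-LOS, and the members summed to 735002, 6391567 and 3061890 UMIs. The WT values thus rest on the fewest cells and UMIs. *Fbn1* (chromosome 2 from 125300594 to 125507993, GRCm38), the targeted gene, was measured in CPM, the UMIs of a gene scaled to 1000000 UMIs of the population. In SMC-type cells, which hold the contractile genes, it was at 252 CPM in WT, 79.6 CPM in mgR and 67.4 CPM in mgR-LOS, lower in both libraries labelled as mutant. In the members *Fbn1* was near 0, with 4, 28 and 16 UMIs in WT, mgR and mgR-LOS, so the members themselves do not check the labels. Pairs of libraries shared 22, 29 and 46 barcodes, and no barcode of a member was shared. Doublet calls marked 2 members in WT, 55 in mgR and 35 in mgR-LOS, and called cells were kept.

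Resident-type macrophages made up a larger share of the cells in mgR than in WT, and a share in between in mgR-LOS. They were 1.45% of all cells in WT (95% interval 1.15 to 1.81), 8.79% in mgR (8.18 to 9.43) and 3.44% in mgR-LOS (3.13 to 3.77). None of the 3 intervals overlapped. The share in mgR was 7.34 percentage points above that in WT (6.64 to 8.04), and the share in mgR-LOS was 5.35 points below that in mgR (difference −5.35, −6.05 to −4.66) and 1.99 points above that in WT (1.52 to 2.43). These are shares of dissociated cells that passed the limits, and the enzymatic release and the limit on mitochondrial UMIs both act on them. With at most 5% mitochondrial UMIs the shares were 3.25%, 11.8% and 5.35%, in the same order.

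Most C1q-positive macrophages of every library were members. They numbered 78 of 89 in WT (87.6%, 79.0 to 93.7), 710 of 938 in mgR (75.7%, 72.8 to 78.4) and 438 of 550 in mgR-LOS (79.6%, 76.0 to 82.9). The share in mgR was lower than in WT by 11.9 points (difference −11.9, −18.0 to −3.11), but the interval held 0 with a minimum of 200 genes (−14.8 to 0.89), a marker sum of at least 6 (−17.5 to 1.24) or at least 2 of the 3 genes (−17.02 to 2.15). The interval of the difference between mgR-LOS and mgR (3.94 points, −0.49 to 8.19) held 0. Earlier in the rule, the limit on SMC transcripts kept 93 of 93 cells past the C1q step in WT, 986 of 1087 in mgR and 575 of 646 in mgR-LOS. The rule's own threshold cut a continuous range: 0, 33 and 15 members of WT, mgR and mgR-LOS held 3 to 4 UMIs of the *Folr2*, *F13a1* and *Mrc1* sum per 10000, and 3, 30 and 12 cells just outside held 2 to 3. Membership rested on a single UMI in 0, 7 and 10 cells, and all 3 genes were detected in 69.2%, 64.5% and 67.8% of the members. The median sum was 33.7 per 10000 in WT, 32.3 in mgR and 43.2 in mgR-LOS.

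**Figure D1:**
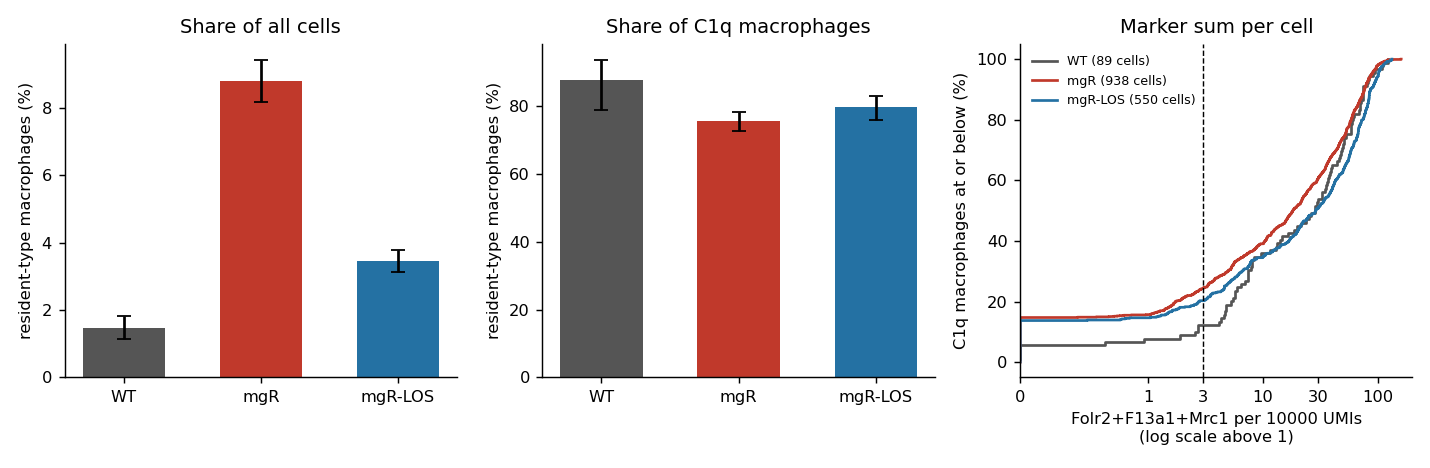
Share of resident-type macrophages among all cells (left) and among C1q macrophages (middle), in percent per library with exact 95% intervals, and the cumulative share of C1q macrophages by their UMIs of *Folr2*, *F13a1* and *Mrc1* per 10000 (right), with the threshold of 3 dashed. The bars at left stand at 1.45%, 8.79% and 3.44%, and the curves cross the threshold without a step.

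The label was set beside its markers. *C1qa* (chromosome 4 from 136895917 to 136898803), a chain of complement C1q, was at 5902, 5606 and 5247 CPM in the members of WT, mgR and mgR-LOS. *Folr2* was at 912, 695 and 956 CPM, *F13a1* at 1618, 1683 and 2393 CPM, and *Mrc1* at 1608, 1634 and 1749 CPM. All of these belong to the rule. *Pf4* (chromosome 5 from 90772435 to 90773383), which does not, was at 3196, 2406 and 2569 CPM in the members, at 609, 683 and 404 CPM in the other C1q macrophages and at 1.17, 2.59 and 3.82 CPM in SMC-type cells. After thinning each cell to 2000 UMIs, *Pf4* was found in 93.4%, 82.6% and 86.4% of the members (97.4%, 92.1% and 91.6% before thinning) against 0.197%, 0.709% and 0.80% of SMC-type cells, which should lack it and whose median depth was 14372, 15129 and 8525 UMIs. Thinning left out 2 members in WT, 10 in mgR and 19 in mgR-LOS. *Csf1r*, the receptor through which macrophages survive, was at 982, 1074 and 1167 CPM. *Pf4*, the marker outside the rule, thus stood higher in the members than in the other C1q macrophages and the SMC-type cells of each library. Both of these populations were set apart by sums of the rule's genes, so the values describe the members and are no independent check of the label.

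Markers of other cell types were present at low levels and did not replace the macrophage genes. The 7 SMC genes listed summed to 897, 1214 and 1359 CPM in the members of WT, mgR and mgR-LOS, with *Acta2* the most abundant at 393, 507 and 572 CPM and none at 0, and *Tagln* at 165, 344 and 320 CPM, against 53819, 50077 and 50377 CPM in SMC-type cells. The 10 fibroblast genes summed to 384, 558 and 782 CPM, led by *Gsn* in WT and by *Col3a1* in mgR and mgR-LOS, against 47769, 43111 and 53408 CPM in fibroblast-type cells. Both sums were lowest in WT. The rule capped SMC and fibroblast transcripts in each cell, and their part in the differences below was not tested. The T and natural killer cell list summed to under 1 CPM in each library, and the endothelial list to 6.80, 24.3 and 12.1 CPM. The 6 neutrophil genes summed to 91.2, 46.5 and 50.9 CPM, of which *Mmp9* alone gave 80.3 CPM in WT, with 4 of the 6 at 0 there. The B cell list summed to 223, 192 and 195 CPM, almost all of it *Ighm*, the dendritic cell list to 47.6, 17.5 and 30.4 CPM, the mast cell list to 0, 1.72 and 3.59 CPM, the red cell list to 17.7, 29.1 and 270.4 CPM and the Schwann and mesothelial list to 1.36, 11.1 and 2.94 CPM. The 12 genes of monocyte-derived cells summed to 1639, 2429 and 1890 CPM in the members and to 4077, 4637 and 3688 CPM in the other C1q macrophages.

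**Figure D2:**
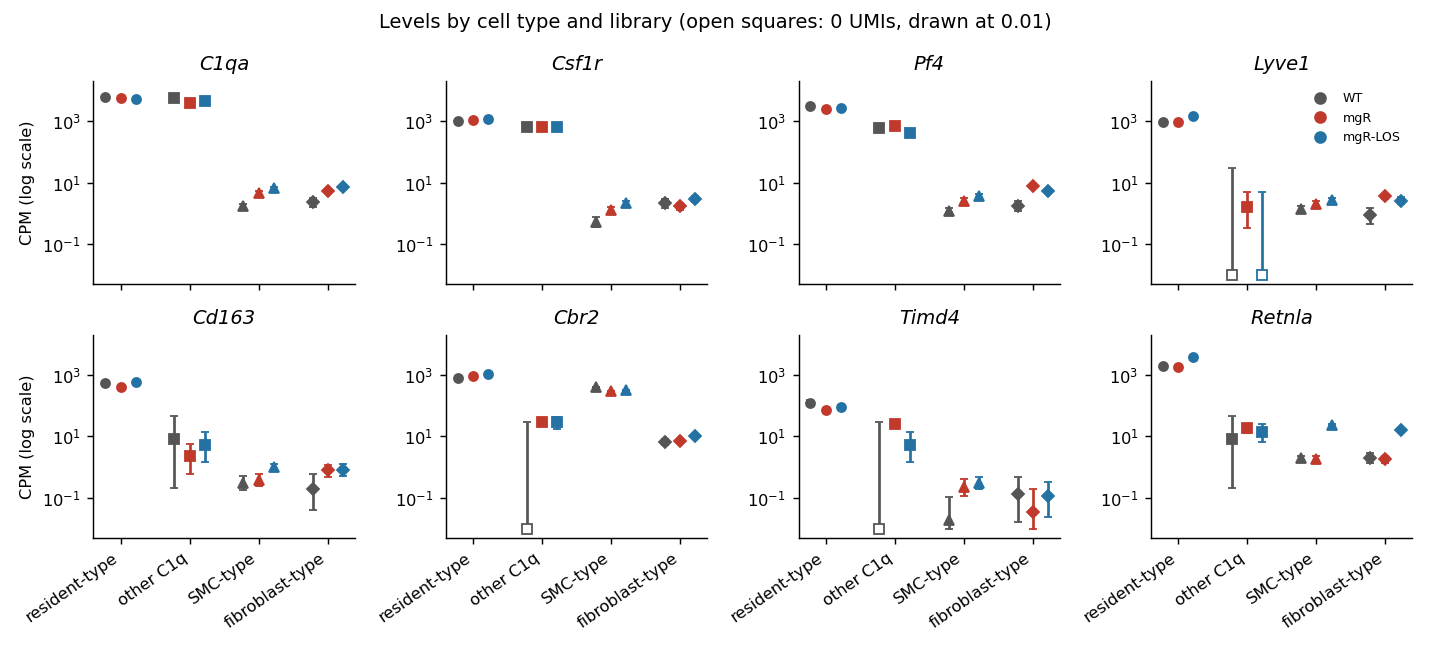
Level in CPM (log scale) of 8 genes in resident-type macrophages, other C1q macrophages, SMC-type and fibroblast-type cells of each library, with exact 95% Poisson intervals; open symbols mark 0 UMIs. *Lyve1*, *Cd163*, *Timd4* and *Retnla* stand highest in the members of each library, and *Cbr2* is also abundant in SMC-type cells (406, 298 and 318 CPM).

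Set beside the other C1q macrophages of the same library, the members differed most in the genes that chose them and in a group that follows them. The rule used this contrast, so the values describe the members and support nothing. Of 2620 genes measured, 122 (4.66%) were at least 2-fold higher in the members in all 3 libraries and 36 (1.37%) at most 0.5-fold. *Lyve1* (chromosome 7 from 110850607 to 110863239) was among the 10 leading genes of each library. It stood at 918, 914 and 1434 CPM in the members and at 0, 1.68 and 0 CPM in the other C1q macrophages of WT, mgR and mgR-LOS, with 3 UMIs in mgR and none elsewhere. *Cd163*, the scavenger receptor for hemoglobin bound to haptoglobin, was at 556, 398 and 596 CPM against 8.12, 2.24 and 5.36 CPM. *Retnla*, a secreted protein of alternatively activated macrophages, was at 1884, 1724 and 3821 CPM against 8.12, 18.5 and 13.4 CPM. *Gas6*, a bridge between dying cells and their phagocytic receptors, was at 356, 405 and 502 CPM against 24.4, 35.8 and 26.8 CPM. The carbonyl reductase *Cbr2*, the ion transport regulator *Fxyd2*, the lectin *Clec10a*, the ficolin *Fcna*, the transcription factor *Maf* and the chemokines *Ccl2*, *Ccl8* and *Ccl24* completed the leading genes. Of 22 measured genes of the list of resident macrophage genes outside the rule, 19 were at least 2-fold higher in the members in all 3 libraries. At the other end, the elastase *Mmp12* was at 49.0, 23.5 and 36.6 CPM in the members against 317, 179 and 321 CPM in the other C1q macrophages, and *Cd52*, a surface glycoprotein of leukocytes, at 551, 778 and 505 CPM against 2526, 1846 and 1955 CPM. The WT values of the other C1q macrophages rest on 11 cells.

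The members were not uniform, and the level of MHC class II was lower in members with *Lyve1* than in those without in every library, although many cells held both. Each cell was thinned to 2000 UMIs and set into cells with and without a *Lyve1* UMI. *Lyve1* was found in 51.3% of the WT members (39.6 to 63.0), 43.7% of the mgR members (40.0 to 47.5) and 61.1% of the mgR-LOS members (56.2 to 65.8), and in 61.5%, 52.8% and 65.1% before thinning, against 0.254%, 0.386% and 0.394% of SMC-type cells. The class is defined by a UMI and a cell without one may still express the gene. The median depth was 9091 UMIs with *Lyve1* and 8437 without in WT, 9107 and 8294 in mgR, and 6698 and 6323 in mgR-LOS.

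A panel of 4 MHC class II genes, *H2-Aa*, *H2-Ab1*, *H2-Eb1* and the invariant chain *Cd74*, was lower in the cells with *Lyve1*. The panel was at 12705 CPM with *Lyve1* and 38294 CPM without in WT (ratio 0.33, 0.32 to 0.34), at 4734 and 17601 CPM in mgR (0.27, 0.26 to 0.27) and at 4215 and 18729 CPM in mgR-LOS (0.23, 0.22 to 0.23). By cell, 22 of the 39 WT members with *Lyve1* held at least 10 panel UMIs of 2000 and 17 held fewer, against 65 and 241 in mgR and 63 and 193 in mgR-LOS. Members with neither a *Lyve1* UMI nor 10 panel UMIs were 7.89% in WT, 24.6% in mgR and 16.5% in mgR-LOS. The cells with *Lyve1* held more of other resident genes. *Folr2*, a gene of the rule, was at 1497 CPM with *Lyve1* and 253 CPM without in WT, 1229 and 254 CPM in mgR, and 1411 and 223 CPM in mgR-LOS. *Timd4*, a receptor for phosphatidylserine on dying cells and a mark of long-lived resident macrophages, was 11.8-fold higher with *Lyve1* in WT (5.21 to 33.2), 12.9-fold in mgR (9.34 to 18.4) and 12.3-fold in mgR-LOS (7.09 to 23.5). The eotaxin *Ccl24* was 11.9-fold, 6.28-fold and 8.73-fold higher. *Ccr2* ran the other way, at 38.7 and 137 CPM with and without *Lyve1* in WT, 98.9 and 432 CPM in mgR, and 43.8 and 403 CPM in mgR-LOS. The fractalkine receptor *Cx3cr1* followed *Ccr2*, with ratios of 0.24, 0.38 and 0.27.

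*Retnla* split the members in another way, and the cells with it held more *Lyve1* and more *Folr2* but less *Pf4* in every library. *Retnla* was found in 15.8% of thinned members in WT (8.43 to 25.96), 16.7% in mgR (14.0 to 19.7) and 29.1% in mgR-LOS (24.8 to 33.7), and in 21.8%, 23.9% and 37.0% before thinning, against 0.564%, 0.386% and 2.22% of SMC-type cells. Its level with and without *Lyve1* was 1911 and 1876 CPM in WT, 2143 and 1345 CPM in mgR, and 3449 and 4472 CPM in mgR-LOS, with no single direction across libraries. Taken by *Retnla* instead, *Lyve1* was 1.92-fold higher with *Retnla* than without in WT (1.61 to 2.29), 1.72-fold in mgR (1.62 to 1.82) and 1.88-fold in mgR-LOS (1.77 to 1.999), and *Folr2* was 2.02-fold, 1.74-fold and 1.68-fold higher. Cells with *Retnla* held little *Cx3cr1*: 8.84 CPM against 351 CPM without *Retnla* in WT, 57.1 against 382 CPM in mgR and 21.5 against 229 CPM in mgR-LOS. They held more *Ccr2*, at 380 against 30.7 CPM in WT, 536 against 225 CPM in mgR and 342 against 98.6 CPM in mgR-LOS. They held less *Pf4*, with ratios of 0.83 (0.73 to 0.94), 0.89 (0.86 to 0.93) and 0.82 (0.78 to 0.86) in WT, mgR and mgR-LOS. The MHC class II panel was higher with *Retnla*, at 1.11-fold, 1.63-fold and 1.46-fold. The WT class with *Retnla* is 12 cells, and its *Cx3cr1* value is 1 UMI.

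The genotype comparison asks how the members of mgR differed from those of WT. Of 2980 genes at 50 CPM or more in either library, 39 (1.31%) were at least 2-fold higher in mgR and 29 (0.973%) at most 0.5-fold, 1693 were above 1 and 1287 below, and the median ratio was 1.03. Genes past 2-fold are called here by size alone. In the MHC class II list 9 of 12 genes were measured, 3 of these were at most 0.5-fold and none was 2-fold higher, all 9 were below 1, and the median ratio was 0.60. Among the 16 general macrophage genes no member passed 2-fold in either direction, with a median ratio of 1.09. Of the fibroblast genes outside the rule 4 were measured, all 4 were above 1, and *Col1a1* was past 2-fold, at 35.4 CPM in WT and 99.8 CPM in mgR, with a median ratio of 1.79 over the 4.

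*H2-Aa* (chromosome 17 from 34282744 to 34287823, minus strand) encodes the alpha chain of I-A. It was at 4838 CPM in WT, 2366 CPM in mgR and 1848 CPM in mgR-LOS. Its partner *H2-Ab1* (chromosome 17 from 34257689 to 34269419) was at 4686, 2051 and 1664 CPM, and *H2-Eb1* (chromosome 17 from 34305867 to 34316674), the beta chain of I-E, at 4641, 1990 and 1482 CPM. The WT members stood highest and the mgR-LOS members lowest in all 3 genes. The ratios of mgR over WT were 0.49 (0.47 to 0.51), 0.44 (0.42 to 0.46) and 0.43 (0.41 to 0.45). *Cd74* was at 10610, 5359 and 4813 CPM, a ratio of 0.51 (0.49 to 0.52) that lies just outside the 2-fold limit. *H2-DMa* and *H2-DMb1*, which load peptides, were at ratios of 0.71 (0.62 to 0.83) and 0.60 (0.51 to 0.71), and *Ciita*, the coactivator of these genes, at 39.5 CPM in WT and 21.3 CPM in mgR. The panel over all members was at 24774, 11766 and 9807 CPM, a ratio of 0.47 (0.47 to 0.48) for mgR over WT and 0.83 (0.82 to 0.84) for mgR-LOS over mgR. The latter did not hold within all classes of cells: the ratio of mgR-LOS over mgR was 0.89 (0.87 to 0.92) with *Lyve1* and 1.06 (1.05 to 1.08) without, and 1.27 (1.25 to 1.30) with *Ccr2* and 0.89 (0.87 to 0.91) without. The summed dendritic cell list, 47.6 CPM in WT and 17.5 CPM in mgR, was also lower in mgR (0.37, 0.25 to 0.55), with *Siglech* its most abundant gene and *Flt3*, *Xcr1*, *Clec9a* and *Itgae* at 0 in WT, and its part was not tested.

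The proximal promoters of *H2-Aa* and *H2-Eb1* are shown because both genes were lower together. They come from RefSeq on GRCm38.p6, each 5′ to 3′ on the strand of the gene, and the capitals mark the letters TGATTGG, the core of the Y box that binds NF-Y. *H2-Aa* lies at chr17:34287837-34287933 (minus strand), with the capitals starting 50 bases before the start of the gene, and *H2-Eb1* at chr17:34305746-34305842 (plus strand), with the capitals 61 bases before.
H2-Aa: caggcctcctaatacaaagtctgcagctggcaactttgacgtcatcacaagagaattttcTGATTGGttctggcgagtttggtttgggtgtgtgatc
H2-Eb1: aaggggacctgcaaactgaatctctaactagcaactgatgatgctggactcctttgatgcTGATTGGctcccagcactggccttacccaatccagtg
On either strand, TGATTGG occurred in 5 of the 6 listed class II genes with a promoter in the table against 2431 of all 27025 genes in it, and in 7.82% of all 32851 promoter windows of the same 300 bases. The match is a description of the letters and was chosen after the values were seen.

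**Figure D3:**
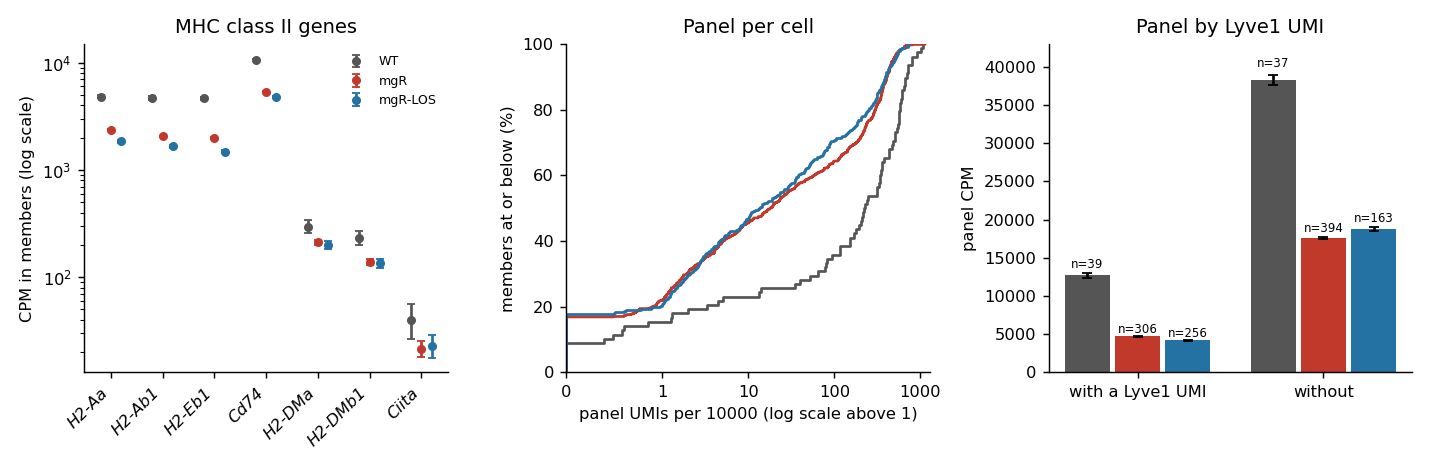
MHC class II in resident-type macrophages. Left, CPM (log scale) of 7 genes per library with exact 95% Poisson intervals; middle, cumulative share of members by panel UMIs per 10000; right, panel CPM in members with and without a *Lyve1* UMI after thinning, with the number of cells. The WT points and bars stand above those of both mutant libraries, and the WT curve lies to their right.

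Beside the summed level of MHC class II, the share of members that carried the genes was lower in mgR than in WT. The level among the carrying cells alone was not taken. The median member held 224 panel UMIs per 10000 in WT (quartiles 19.5 and 547), 18.0 in mgR (1.25 and 233) and 13.6 in mgR-LOS (1.37 and 178). Of the WT members, 28.2% held fewer than 50 per 10000, against 58.9% in mgR and 62.6% in mgR-LOS. After thinning, *H2-Aa* was found in 72.4% of the WT members (60.9 to 82.0), 47.3% of the mgR members (43.5 to 51.1) and 42.7% of the mgR-LOS members (37.9 to 47.6), and in 79.5%, 56.5% and 53.2% before. The share in mgR was 25.1 points lower than in WT (difference −25.1, −34.6 to −13.5), whereas the interval of the difference between mgR-LOS and mgR (−4.56 points, −10.5 to 1.46) held 0. In SMC-type cells *H2-Aa* was found in 0.423%, 1.55% and 1.63%. The lower level in mgR held on both sides of the *Lyve1* split, with ratios of mgR over WT of 0.37 (0.36 to 0.39) with *Lyve1* and 0.46 (0.45 to 0.47) without, and on both sides of a *Ccr2* split, with 0.58 (0.57 to 0.60) with *Ccr2* and 0.33 (0.32 to 0.33) without. The WT class with *Ccr2* is 9 cells. In the other C1q macrophages *H2-Aa* was at 8965, 3455 and 5049 CPM, lower in mgR than in WT as well, and the WT value there rests on 11 cells.

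*Ccr2* (chromosome 9 from 124101950 to 124113557) was among the 8 genes highest in mgR. It was at 84.4 CPM in WT, 280 CPM in mgR and 182 CPM in mgR-LOS, a ratio of mgR over WT of 3.32 (2.58 to 4.35). It was found in 11.8% of thinned members in WT (5.56 to 21.3), 26.1% in mgR (22.9 to 29.6) and 13.1% in mgR-LOS (10.0 to 16.7), in 14.1%, 36.2% and 17.1% before thinning, and in at most 0.254% of SMC-type cells. The mgR members thus stood above both other libraries. In the other C1q macrophages the ratio of mgR over WT was 0.89. Of the 12 listed monocyte genes 6 were measured, *Ccr2* and *Ms4a4c* were past 2-fold, and the median ratio was 1.42. The summed list was higher in mgR than in WT in the members (2429 and 1639 CPM). It was also higher in SMC-type cells (4092 and 2780 CPM) and in fibroblast-type cells (4327 and 3375 CPM). *S100a6* led the list in both of these cell types, and the part of free RNA was not tested.

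Other genes high in mgR were spread over many members or held by few. *Cd93*, a receptor of myeloid and endothelial cells, was at 44.9, 162 and 78.1 CPM in WT, mgR and mgR-LOS and was found in 7.89%, 22.1% and 12.9% of thinned members (19.2%, 49.0% and 25.6% before), against at most 1.38% of SMC-type cells. The summed endothelial list, given above, was also highest in mgR, and its part was not tested. *Vsig4*, a complement receptor of tissue macrophages, was at 17.7, 96.5 and 99.3 CPM, with a ratio of mgR over WT of 5.46 (3.17 to 10.3), and was found in 2.63%, 8.29% and 7.88% of thinned members (6.41%, 12.5% and 13.5% before), against at most 0.0254% of SMC-type cells. *Ccl8*, a chemokine of resident macrophages, was at 248, 646 and 475 CPM, and was found in 18.4%, 24.9% and 22.9% of thinned members (29.5%, 37.6% and 33.1% before), against at most 0.225% of SMC-type cells. The intervals of the differences in share between mgR and WT held 0 for both genes, at 5.65 points (−1.06 to 8.62) for *Vsig4* and 6.44 points (−4.17 to 14.3) for *Ccl8*. *Spp1*, or osteopontin, was at 25.9, 137 and 58.5 CPM, and a single WT cell held 73.7% of its WT UMIs. Its ratio of mgR over WT was 5.29 in the members and 26.5 in SMC-type cells. *Fabp5*, a fatty acid carrier, was at 2.72, 69.9 and 22.2 CPM, on 2 UMIs in WT. *Trem2*, a lipid receptor that reached 1.98-fold (1.63 to 2.43), was at 148, 294 and 168 CPM and was found in 22.4%, 39.3% and 25.1% of thinned members (56.4%, 77.7% and 51.6% before). *Spp1*, *Fabp5* and *Trem2* all stood highest in mgR, and of the 12 measured genes of the lipid-associated list 2 were at least 2-fold higher and none at most 0.5-fold.

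*Saa3* and *Cxcl13* had no UMI in the WT members. *Saa3*, an acute-phase protein, stood at 170 CPM in mgR and at 19.9 CPM in mgR-LOS, and against a floor of 3 UMIs it was at least 41.7-fold higher in mgR than in WT. Its UMIs lay in 36 mgR members. It was found in 2.57% of thinned mgR members and in none in WT, and the interval of the difference (−2.33 to 4.03 points) held 0. In mgR-LOS, 1 of the 5 members that carried it held 75.4% of its UMIs. *Cxcl13*, the chemokine of B cell follicles, stood at 124 CPM in mgR and at 1.31 CPM in mgR-LOS, at least 30.4-fold higher in mgR than in WT, but 1 of the 12 mgR cells that carried it held 67.2% of its UMIs. In the other C1q macrophages *Saa3* was at 48.7, 2420 and 5.36 CPM. *Mgp*, matrix Gla protein, an abundant SMC transcript, was at 190, 974 and 736 CPM in the members and at 6179, 26250 and 10520 CPM in SMC-type cells. *Mgp* in the members moved with its level in SMC-type cells, and the part of free RNA was not tested.

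The genes low in mgR were of several kinds. *Mgl2*, a galactose-binding lectin named after its values were seen, was at 786 CPM in WT, 351 CPM in mgR and 578 CPM in mgR-LOS, and was found in 71.1% of thinned members in WT (59.5 to 80.9), 34.4% in mgR (30.9 to 38.1) and 55.6% in mgR-LOS (50.7 to 60.4), and in 83.3%, 60.3% and 74.4% before thinning. *Slc40a1*, or ferroportin, which exports iron, was at 83.0, 19.7 and 37.2 CPM, with a ratio of mgR over WT of 0.24 (0.17 to 0.33). *Mmp9*, a gelatinase, was at 80.3, 15.5 and 32.7 CPM, *Cd209g*, a lectin, at 107, 32.5 and 52.9 CPM, and *Kitl*, the stem cell factor, at 76.2, 23.6 and 51.9 CPM. In each of these the WT members stood highest and the mgR members lowest. *Eif3j1*, a translation initiation factor, was at 68.0, 20.2 and 34.3 CPM and had like ratios of mgR over WT of 0.26 in SMC-type and 0.27 in fibroblast-type cells. *Mmp13*, *Cxcl9* and *Cd209d* were also among the 8 lowest, but 1 WT cell held 54.6%, 98.8% and 97.3% of their WT UMIs. Without the cell of each library that held most UMIs of the gene, the ratio was 0.17 for *Mmp13*, 4.86 for *Cxcl9* and 1.5 for *Cd209d*.

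**Figure D4:**
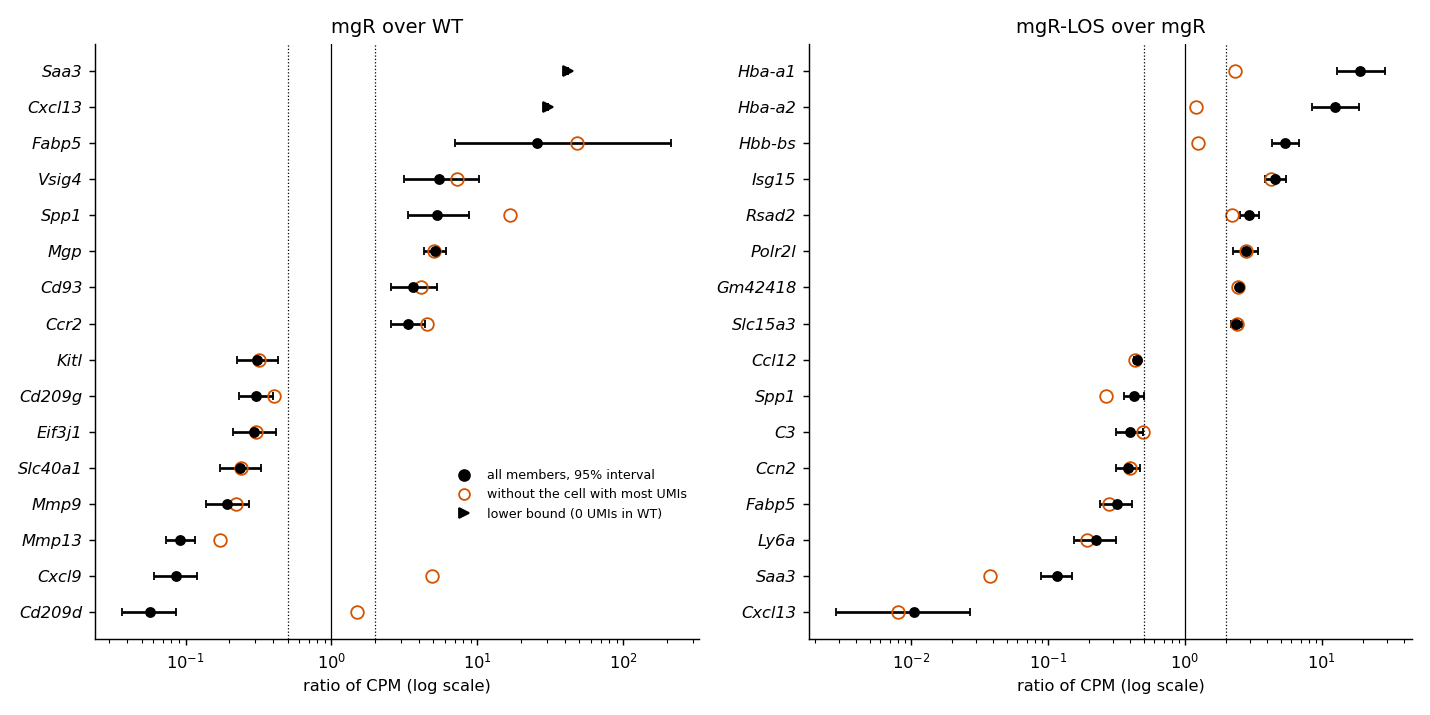
Ratio of CPM (log scale) for the 8 highest and 8 lowest genes of mgR over WT (left) and mgR-LOS over mgR (right), ranked by the bound of the exact 95% interval nearest to 1. Open circles give the ratio without the cell of each library that holds most UMIs of the gene, and arrowheads a lower bound; *Cxcl9* and *Cd209d* change side at left, and the 3 globin genes move toward 1 at right.

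Of the 25 listed resident macrophage genes outside the rule, all were measured in mgR and WT, 2 were at least 2-fold higher (*Vsig4* and *Ccl8*) and 3 at most 0.5-fold (*Cd209d*, *Cd209f* and *Cd209g*, of which *Cd209f* was at 0.61 without the top cells), with a median ratio of 0.94. *Lyve1* was at a ratio of 1.00 (0.92 to 1.08), *Cd163* of 0.71 (0.64 to 0.80) and *Timd4* of 0.62 (0.50 to 0.79). The cytokine *Il1b* was at 2083, 1969 and 1635 CPM in WT, mgR and mgR-LOS and *Tnf* at 619, 559 and 499 CPM. Among the 14 measured inflammatory genes 1 was 2-fold higher in mgR, the lectin *Clec4e*, at 61.2 and 171 CPM, and the median ratio was 0.95.

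The losartan comparison asks how the members of mgR-LOS differed from those of mgR. Of 3025 genes measured, 21 (0.694%) were at least 2-fold higher in mgR-LOS and 15 (0.496%) at most 0.5-fold, 1438 were above 1 and 1587 below, and the median ratio was 0.99. Depth was lower in mgR-LOS, and its reads were processed with another Cell Ranger version per the file headers, which cannot be told apart from the treatment. Of 24 measured resident macrophage genes outside the rule, 23 were above 1 and none passed 2-fold, with a median ratio of 1.25. The exception was *Ccl8*, at 0.73. The summed list was higher in mgR-LOS than in mgR in the members (17011 and 13969 CPM) and SMC-type cells (1543 and 1330 CPM). It was lower in the other C1q macrophages (2469 and 3340 CPM) and fibroblast-type cells (4687 and 5076 CPM). *Lyve1* stood at 914 CPM in mgR and at 1434 CPM in mgR-LOS (ratio 1.57, 1.51 to 1.63), *Cd163* at 398 and 596 CPM (1.498, 1.41 to 1.59), *Ccl24* at 206 and 378 CPM (1.83, 1.69 to 1.99) and *Maf* at 704 and 1045 CPM. The share of thinned members with *Lyve1* was 17.4 points higher (11.4 to 23.2) and that with *Cd163* 11.5 points higher (5.63 to 17.3). The monocyte list moved the other way, with 5 of 6 measured genes below 1 and a median ratio of 0.74. Its sum was also lower in mgR-LOS than in mgR in SMC-type cells (2829 and 4092 CPM) and in fibroblast-type cells (3499 and 4327 CPM), where *S100a6* led it as in the mgR-LOS members, and the part of free RNA was not tested. *Ccr2* was at a ratio of 0.65 (0.59 to 0.71) with a share of cells 13.02 points lower (difference −13.02, −17.5 to −8.28).

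*Retnla* was higher and *Cx3cr1* lower in CPM in mgR-LOS than in both other libraries, although the shares of thinned members with *Retnla*, given above, had overlapping intervals in mgR-LOS and WT. *Retnla* (chromosome 16 from 48842551 to 48844461) was at 1884 CPM in WT, 1724 CPM in mgR and 3821 CPM in mgR-LOS, and was 2.22-fold higher in mgR-LOS than in mgR (2.16 to 2.27). The share of thinned members with it was 12.4 points higher (7.32 to 17.6). *Retnla* was also 12.5-fold higher in SMC-type and 9.06-fold higher in fibroblast-type cells of mgR-LOS. *Cx3cr1* was at 299, 324 and 158 CPM, a ratio of 0.49 (0.44 to 0.54), and the share of thinned members with it, 36.8%, 37.6% and 20.8% (55.1%, 60.6% and 34.5% before), was 16.8 points lower in mgR-LOS (difference −16.8, −21.9 to −11.4). It was found in at most 0.140% of SMC-type cells, and its ratio in the other C1q macrophages was 1.24. *Trem2* was at a ratio of 0.57 (0.52 to 0.63).

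Several interferon-stimulated genes were higher in mgR-LOS. Of the 20 listed, 14 were measured, 4 were at least 2-fold higher (*Isg15*, *Rsad2*, *Ifit1* and *Ifit2*), none was at most 0.5-fold, 11 were above 1, and the median ratio was 1.26. The 20 genes summed to 3358 CPM in mgR-LOS and 3089 CPM in mgR (ratio 1.09, 1.06 to 1.11). *Ifitm3*, the most abundant, was lower, at 1491 and 1691 CPM. In the other C1q macrophages the sum was lower in mgR-LOS than in mgR (2506 and 3877 CPM). It was also lower in SMC-type cells (490 and 583 CPM) and fibroblast-type cells (2306 and 2643 CPM). *Isg15*, a ubiquitin-like protein, was at 38.1 CPM in WT, 28.6 CPM in mgR and 131 CPM in mgR-LOS, 4.56-fold above mgR (3.82 to 5.47). It was found in 5.26% of thinned members in WT (1.45 to 12.9), 4.71% in mgR (3.27 to 6.56) and 16.9% in mgR-LOS (13.5 to 20.9), and in 23.1%, 14.5% and 29.7% before thinning. In SMC-type cells *Isg15* was found in 0.366%, 0.966% and 2.30%, and its ratio of mgR-LOS over mgR was 2.46 there and 3.58 in fibroblast-type cells. *Rsad2*, an antiviral enzyme, was at 42.2, 43.7 and 129 CPM, and 1 mgR-LOS cell held 32.6% of its UMIs. Without the top cells its ratio was 2.23, and those of *Ifit1* and *Ifit2*, at 55.5 and 51.3 CPM in mgR-LOS, were 1.94 and 1.95, inside the 2-fold limit. In the other C1q macrophages the ratios of *Isg15*, *Rsad2* and *Ifit1* were 1.88, 0.26 and 0.18. *Irf7* was at 27.2, 75.7 and 77.7 CPM, past 2-fold in mgR over WT.

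The other genes highest in mgR-LOS were of another kind. *Hba-a1*, *Hba-a2* and *Hbb-bs*, the globins of red cells, were 19.0-fold, 12.5-fold and 5.4-fold higher, and 1 cell held 89.4%, 92.1% and 79.3% of their mgR-LOS UMIs. Without the top cells the ratios were 2.34, 1.21 and 1.25. *Gm42418*, a locus that overlaps ribosomal RNA, took 3.09%, 2.39% and 5.91% of the members' UMIs in WT, mgR and mgR-LOS and was also 1.73-fold higher in SMC-type cells of mgR-LOS. *Slc15a3*, a lysosomal peptide transporter, was at 151, 124 and 295 CPM, and *Polr2l*, a subunit of RNA polymerases, at 32.7, 25.03 and 69.6 CPM.

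The genes lowest in mgR-LOS included several that were highest in mgR. *Cxcl13*, *Saa3*, *Fabp5* and *Spp1*, named above, were at ratios of 0.011 (0.0029 to 0.027), 0.12 (0.089 to 0.15), 0.32 (0.24 to 0.41) and 0.43 (0.36 to 0.50). The 2 comparisons share the mgR library, so a value that is high there by itself lowers the one and raises the other. *Ccl12*, a monocyte chemokine, was at 853, 1103 and 493 CPM, with a ratio of 0.45 (0.42 to 0.47). *Ccn2*, a matrix protein induced by TGF-β, was at 58.5, 97.9 and 37.9 CPM, with ratios of 0.30 in SMC-type and 0.43 in fibroblast-type cells as well. *C3*, the central complement component, was at 40.8, 79.3 and 31.4 CPM, and 1 WT cell held 73.3% of its WT UMIs. *Ly6a*, a surface protein induced by interferon, was at 10.9, 52.6 and 11.8 CPM. Of 15 measured chemokines 12 were below 1 and 2 at most 0.5-fold, with a median ratio of 0.80, and of 14 measured inflammatory genes 13 were below 1 with none past 2-fold. The summed chemokine list was lower in mgR-LOS than in mgR in the members (21159 and 25419 CPM), the other C1q macrophages (14481 and 17445 CPM), SMC-type cells (178 and 287 CPM) and fibroblast-type cells (1767 and 2669 CPM). The summed inflammatory list was lower in the members (8414 and 9238 CPM), SMC-type cells (332 and 540 CPM) and fibroblast-type cells (1877 and 2180 CPM), and higher in the other C1q macrophages (14317 and 12550 CPM).

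**Figure D5:**
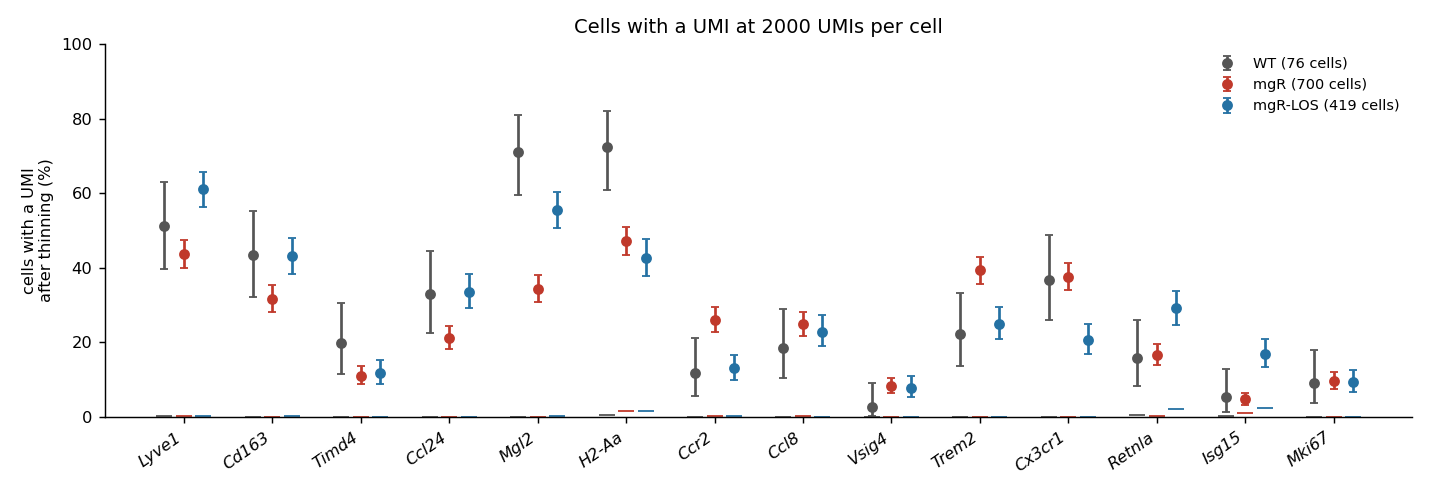
Share of resident-type macrophages with a UMI of each of 14 genes after thinning every cell to 2000 UMIs, in percent with exact 95% intervals, per library. Dashes give the share in SMC-type cells, which lies under 3% for all 14 genes. Pairs of libraries with intervals that do not overlap are seen for *Lyve1*, *Cd163*, *Ccl24*, *Mgl2*, *H2-Aa*, *Ccr2*, *Trem2*, *Cx3cr1*, *Retnla* and *Isg15*.

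Genes of the angiotensin system were low in the members, and those of the TGF-β pathway that were measured lay within 2-fold between libraries. *Agtr1a*, the receptor that losartan blocks, had 0, 1 and 0 UMIs in the members of WT, mgR and mgR-LOS, where the floor of 3 UMIs stands at 4.08 CPM in WT and 0.98 CPM in mgR-LOS, and it was at 2.56, 2.01 and 2.89 CPM in SMC-type cells. Of the 8 genes of the angiotensin system only *Agtrap*, which binds the receptor's tail, reached 50 CPM in a library. It was at 16.3, 39.3 and 60.7 CPM, lowest in WT, where it rests on 12 UMIs, with ratios of 2.41 (1.35 to 4.72) for mgR over WT, both under 50 CPM, and 1.55 (1.27 to 1.88) for mgR-LOS over mgR. The 8 genes summed to 17.7, 46.3 and 66.6 CPM. Of the 12 TGF-β pathway genes 6 were measured in each comparison and none passed 2-fold, with median ratios of 0.98 for mgR over WT and 1.015 for mgR-LOS over mgR. *Tgfb1*, the main ligand in macrophages, was at 185, 169 and 211 CPM and *Tgfbr2* at 222, 213 and 199 CPM.

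Most members of the remaining lists lay within 2-fold. The 16 measured lysosomal genes and the 20 immediate early and stress genes had none past 2-fold in either comparison, with median ratios of 1.06 and 1.13 for mgR over WT and 0.96 and 0.94 for mgR-LOS over mgR. Among 14 measured phagocytic receptors none was past 2-fold in either comparison, with medians of 1.13 and 1.03. Of the 7 measured growth factors 1 was past 2-fold, in mgR over WT: the epidermal growth factor receptor ligand *Areg*, at 55.8, 117 and 140 CPM. *Igf1* was at 239, 232 and 306 CPM. Of the 11 matrix and protease genes measured in mgR and WT, *Thbs1* was at least 2-fold higher and *Mmp9*, *Mmp13* and *Plau* at most 0.5-fold. Of the 9 measured in mgR-LOS over mgR, none was at least 2-fold higher and 1 was at most 0.5-fold. *Thbs1* was at 46.3, 124 and 75.4 CPM and *Plau*, the urokinase, at 190, 86.8 and 104 CPM. Of 13 measured transcription factors, *Id3* and *Bhlhe40* were past 2-fold in mgR over WT, at 110 and 229 CPM and at 17.7 and 57.1 CPM, with 53.8% of the WT UMIs of *Bhlhe40* in 1 cell, and none was in mgR-LOS over mgR. Of 9 measured complement genes other than C1q, *Vsig4* was past 2-fold in mgR over WT and *C3* in mgR-LOS over mgR. Of the 10 measured iron and heme genes only *Slc40a1* passed 2-fold in mgR over WT, and of 8 none did in mgR-LOS over mgR. Cells with *Mki67* or *Top2a*, which mark division, made up 10.5% of thinned members in WT (4.66 to 19.7). They made up 12.6% in mgR (10.2 to 15.3) and 11.2% in mgR-LOS (8.36 to 14.6), with overlapping intervals. Of the 16 listed cell cycle genes, 6 were measured in mgR over WT and 5 in mgR-LOS over mgR, none past 2-fold.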

How the data were processed

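The authors aligned the reads of each library to GRCm38 with Cell Ranger, version 5.0.1 for WT and mgR and 6.0.1 for mgR-LOS per the file headers (the submitters' processing notes name 6.0.1), and deposited UMI counts for 32285 genes without normalization. Cells were selected on genes, mitochondrial share and marker UMIs, counts were summed per population and library and scaled to CPM (UMIs per 1000000 UMIs of the population), and ratios were taken between libraries. A gene was measured at 50 CPM or more in either library and called at a ratio of at least 2 or at most 0.5. With 1 library per condition no count model was fitted. Intervals were exact Poisson, Clopper-Pearson or conditional binomial, and Newcombe's for differences of shares. Shares of cells with a UMI were taken after thinning to 2000 UMIs with fixed seeds. Named genes are the markers, the rule's genes, *Fbn1*, the 8 highest and 8 lowest ratios per comparison by the interval bound nearest to 1, the 10 leading genes per library against other C1q macrophages, and list members. The members, lists and rules were chosen with earlier results of these data known. Doublets were called with a nearest-neighbor score on 25% artificial doublets. SMC-type and fibroblast-type cells were set by the same gene sums. Python 3.11.15, numpy 2.4.6, pandas 2.3.3, scipy 1.17.1 and matplotlib 3.10.9 were used; the interval code was tested on simulated data. Alternatives covered the limits on cells, the rule, the scaling and the floor. Gene positions come from GENCODE M21 and promoters from RefSeq.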

Additional observations from a re-analysis of the deposited data

Results flagged for a closer look

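Barcodes outside the limits on genes and mitochondrial UMIs were left out of the main comparisons. Of these, 1.86% in mgR (48 of 2581, 1.37 to 2.46) met the rest of the rule for resident-type macrophages, above the share in the WT library (17 of 2497, 0.681%, 0.397 to 1.09), and 1.34% did in mgR-LOS (26 of 1942, 0.876 to 1.96). Most of the 48 in mgR, 36, had over 10% mitochondrial UMIs, 21 had fewer than 600 genes and 4 had over 5000, and a barcode can fail several limits. The direction is that of the cells within the limits.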

How the results depend on the processing

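The order of the shares among all cells, lowest in WT and highest in mgR, held under all 8 alternatives. With at most 5% mitochondrial UMIs they were 3.25% in WT, 11.8% in mgR and 5.35% in mgR-LOS. With a marker sum of at least 6 per 10000 they were 7.69% in mgR and 3.09% in mgR-LOS, and the shares among C1q macrophages 75.3%, 66.2% and 71.5%. With at least 2 of the 3 genes they were 7.52% and 2.89%, and among C1q macrophages 73.0%, 64.7% and 66.9%. The other alternatives (wider limits on genes, doublets removed, a C1q sum of at least 20, thinning to 2000 UMIs) moved no share beyond its interval. Among C1q macrophages, the interval of the difference between mgR-LOS and mgR excluded 0 with at most 5% mitochondrial UMIs (5.504 points, 0.83 to 9.97) and with a marker sum of at least 6 (5.25 points, 0.35 to 10.004). Counts of genes past 2-fold depended on the floor: at 20 CPM, 135 genes were higher and 89 lower in mgR over WT and 55 and 39 in mgR-LOS over mgR, and at 200 CPM 11 and 9, and 4 and 3. Among ratios of named and listed genes, 1669 values under the alternatives stayed within their counting interval and 188 moved beyond it. A change of direction was counted only for ratios past 2-fold in the main setting, and 3 values showed it. *Cxcl9* in mgR over WT was at 2.49 with a marker sum of at least 6 and at 4.86 without the top cells. *Cd209d* in mgR over WT was at 1.5 without the top cells. The fits without the top cells and without *Gm42418*, *Malat1* and mitochondrial genes were chosen after seeing the data. No paired analysis was possible because each condition has 1 library. No replicate could be left out. The 78 WT members limit every comparison with WT.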

Other observations

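*Ighm*, the heavy chain of IgM, was abundant in the members although the rule removed cells with *Cd79a*. It was at 215 CPM in WT, 166 CPM in mgR and 187 CPM in mgR-LOS, in 54 of 78, 433 of 710 and 260 of 438 members, against 0.117, 4.53 and 0.518 CPM in SMC-type cells. No single cell held more than 9.49% of it in any library. The B cell genes *Igkc* and *Ms4a1* had no UMI in the WT and mgR-LOS members and stood at 13.9 and 0.939 CPM in mgR, where *Igkc* was also at 7.30 CPM in SMC-type cells, and *Cd79b* was at 8.16, 11.4 and 8.16 CPM. In the other C1q macrophages *Ighm* was at 138, 142 and 131 CPM.

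*Marco*, a scavenger receptor, was found in 10 mgR members at 43.7 CPM, with 49.8% of its UMIs in 1 cell, and had no UMI in the members of WT and mgR-LOS.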
